A study of Mus musculus with 4 samples.

Results

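Levels of 8 Schwann and glial lineage genes (Fabp7, Gfap, Ngfr, Mbp, Pmp22, Egr2, Gap43 and S100b) were followed through a Dox-inducible Mitf system in mouse embryonic fibroblasts (MEFs). The members were given as a list of genes, and their exons were collected by matching exon identifiers to GENCODE release M21. The members were 8 of the 22823 genes in the exon data, and 76 of their 100 annotated exons were listed. The cultures compared were wild-type MEFs at passage 3 (WT MEF), Mitf knock-in MEFs at passage 5 without Dox (Dox (-)), and Mitf knock-in MEFs at passage 5 after 6 days of Dox (Dox (+)). Each was represented by 1 library. Primary mouse melanocytes at passage 5 (PMel) form the other group of the study and were not analysed here. Both knock-in cultures carry the same alleles: M2rtTA, the Dox-responsive transactivator, expressed from the ROSA26 locus, and the M isoform of Mitf under a TetO element downstream of Col1a1. They come from 1 targeted embryonic stem cell clone that also carries an mCherry transgene. The clone was injected into host blastocysts, and MEFs were taken from chimeric embryos, so host cells could be present where cultures were not purified. Transgenic cells could be selected by mCherry and puromycin resistance, and whether this was done for the sequenced cultures is not given in the sources used here. The WT MEF values are those of the column named MEF, which was assigned by that name alone. WT MEF differs from both in passage as well as in the alleles, and these cannot be told apart.

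In the peripheral nervous system, neural crest cells give rise to Schwann cell precursors, immature Schwann cells and then myelinating or non-myelinating Schwann cells, and embryonic nerves are also a source of melanocytes. Fabp7, a fatty acid binding protein, and Gap43, a growth cone protein, mark early stages. Ngfr, the p75 neurotrophin receptor, marks neural crest and immature Schwann cells, S100b, a calcium binding protein, marks the lineage broadly, and Gfap, an intermediate filament, marks non-myelinating Schwann cells and astrocytes. Egr2, a zinc finger transcription factor, drives myelination, and Pmp22 and Mbp encode proteins of compact myelin. Several of the members are not restricted to glia: Pmp22 and Egr2 are also expressed in fibroblasts or immune cells.

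The deposited values were RPKM per exon: the reads on an exon corrected for its length in kb and for how many reads of that library were aligned. Multiplied by exon length, they returned whole reads for 97.1% of low exons in WT MEF and 96.9% in Dox (-), both at a depth of 45000000 reads, and for 96.8% in Dox (+) at 44000000 reads, within 0.02 of a whole number. For a 150 bp exon, the floor taken for detection, 3 reads, equalled 0.444 RPKM at the former depth and 0.455 at the latter. The level of a gene was the RPKM of its highest exon. With 1 library per group no test was possible and there was no replicate check, so intervals below are exact 95% intervals of the reads or of their ratio and cover counting error only. In bulk cultures, fewer cells of a type and less RNA per cell cannot be told apart. Mitf, the induced gene, had 1.52 RPKM in WT MEF, 30.8 in Dox (-) and 1544 in Dox (+). All 10 fibroblast markers were above 1 RPKM in each of the 3 libraries.

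Sequences are shown for the exons on which Fabp7 and Gfap reached their highest level, and for start regions of the members whose exons are compared below. The Fabp7 exon is the third of transcript Fabp7-201, at chr10:57786265-57786366 on the plus strand. The Gfap exon is the seventh of Gfap-201, at chr11:102891911-102891954 on the minus strand and only 44 bp long. Both are coding exons of GENCODE M21, on GRCm38 (mm10), and neither overlaps an exon of another gene.

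Fabp7 exon 3: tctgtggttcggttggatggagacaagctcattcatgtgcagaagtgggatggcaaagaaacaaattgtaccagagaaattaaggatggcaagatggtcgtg
Gfap exon 7: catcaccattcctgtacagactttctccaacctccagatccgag

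Start regions came from RefSeq on GRCm38.p6 and cover 250 bases before and 50 bases from the start site, which are in capitals here. Such regions were used for 6 of the 8 members, with 13 start sites, and none was used for Mbp or Gap43. Whether Mbp has such an entry cannot be told from this selection. The Fabp7 and Gfap regions are shown because these genes had the greatest differences between Dox (-) and Dox (+). The Fabp7 region is chr10:57784673-57784972 on the plus strand and the Gfap region is chr11:102897151-102897450 on the minus strand. For Pmp22 the most upstream start, at chr11:63128732-63129031, and a downstream start, at chr11:63132319-63132618, both on the plus strand, are shown because their exons differed in use.

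Fabp7 start: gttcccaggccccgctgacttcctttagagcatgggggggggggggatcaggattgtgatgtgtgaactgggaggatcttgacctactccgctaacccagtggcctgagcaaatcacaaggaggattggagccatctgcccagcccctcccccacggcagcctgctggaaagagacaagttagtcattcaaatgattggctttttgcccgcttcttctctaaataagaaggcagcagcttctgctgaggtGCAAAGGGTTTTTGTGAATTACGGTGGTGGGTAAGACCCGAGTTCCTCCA
Gfap start: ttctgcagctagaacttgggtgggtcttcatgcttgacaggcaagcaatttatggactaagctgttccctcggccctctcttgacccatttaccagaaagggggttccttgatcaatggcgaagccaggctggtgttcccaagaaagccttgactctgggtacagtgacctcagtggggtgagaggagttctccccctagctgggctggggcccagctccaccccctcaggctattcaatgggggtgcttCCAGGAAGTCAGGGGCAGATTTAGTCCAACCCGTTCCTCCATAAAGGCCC
Pmp22 upstream start: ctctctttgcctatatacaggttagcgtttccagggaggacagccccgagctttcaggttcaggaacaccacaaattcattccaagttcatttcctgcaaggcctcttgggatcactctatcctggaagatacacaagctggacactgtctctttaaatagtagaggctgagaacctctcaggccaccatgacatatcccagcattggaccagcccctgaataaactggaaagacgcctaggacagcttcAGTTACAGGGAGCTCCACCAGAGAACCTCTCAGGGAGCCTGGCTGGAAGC
Pmp22 downstream start: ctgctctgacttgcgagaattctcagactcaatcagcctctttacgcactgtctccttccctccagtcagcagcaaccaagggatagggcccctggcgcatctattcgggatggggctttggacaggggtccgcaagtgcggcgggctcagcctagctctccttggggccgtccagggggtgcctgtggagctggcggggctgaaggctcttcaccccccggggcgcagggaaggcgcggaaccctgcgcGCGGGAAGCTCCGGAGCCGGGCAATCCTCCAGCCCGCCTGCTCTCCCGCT

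The 13 regions were searched on both strands for the E-boxes CATGTG and CACGTG, to which Mitf can bind, for ACAAAG, a SOX motif, and for GCGTGGGCG, an EGR motif. In all 32851 RefSeq start regions these were found in 14.2%, 7.15%, 18.7% and 0.612%. None of the 4 was found in the regions of Fabp7, Gfap, Ngfr, S100b or Pmp22, which says only that these letters are absent from these windows. Egr2 had CACGTG at 1 start, 27 bases before it, and CATGTG in 3 overlapping windows, which are the same site. No matches overlapped. One of the windows, at chr10:67537619-67537918 on the plus strand, has CATGTG 115 bases before the start and is shown with the motif in capitals.

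Egr2 start: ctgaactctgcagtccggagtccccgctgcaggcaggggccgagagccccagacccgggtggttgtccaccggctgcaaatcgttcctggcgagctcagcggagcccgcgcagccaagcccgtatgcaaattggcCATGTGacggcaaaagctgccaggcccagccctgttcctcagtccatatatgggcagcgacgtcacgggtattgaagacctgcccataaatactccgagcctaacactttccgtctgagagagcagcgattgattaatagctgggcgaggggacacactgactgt

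The 8 genes covered a wide range of levels. Of these, 6 were above 10 RPKM in at least 1 library, as were 13580 of all genes (59.5%), while Pmp22 and Gap43 were above it in all 3 and Mbp and S100b in none. Fabp7, Gfap, Ngfr and Egr2 were lowest in WT MEF and highest in Dox (-). Pmp22 and Mbp had the same order, Mbp at under 10 RPKM throughout. Gap43 was highest in WT MEF, as was S100b, whose intervals overlapped. The plot of levels by library shows these patterns.

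**Figure D1:**
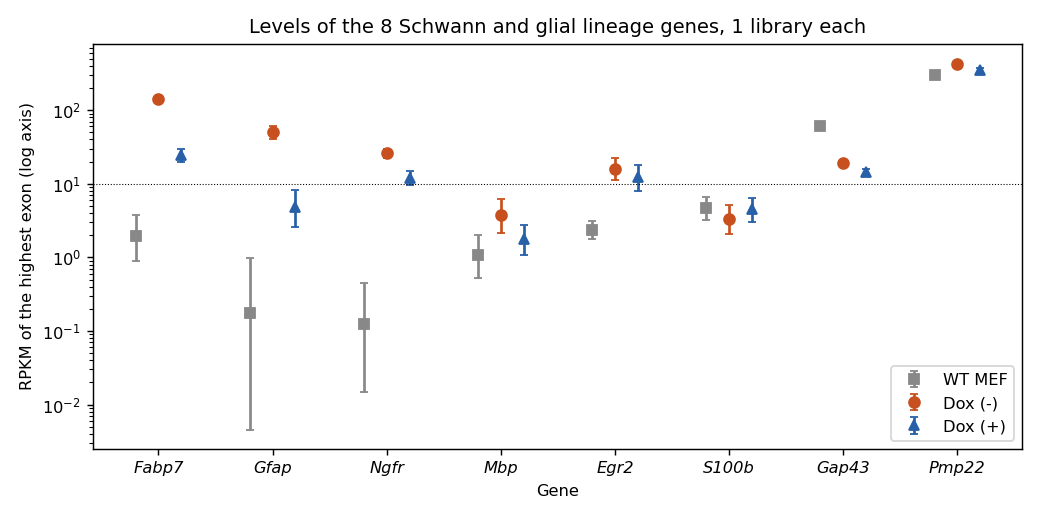
RPKM of the highest exon of each gene (log axis) in WT MEF (squares), Dox (-) (circles) and Dox (+) (triangles), 1 library each; bars are exact 95% intervals of the reads and the dotted line is at 10 RPKM. Fabp7 falls at 1.96, 144 and 24.3 RPKM in the 3 libraries in that order, whereas Gap43 falls at 61.3, 19.1 and 14.3.

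Fabp7 (chr10:57784881-57788450, plus strand) had 1.96 RPKM in WT MEF, 144 in Dox (-) and 24.3 in Dox (+). These values came from 9, 660 and 109 reads on the same exon, whose sequence is given above. The level was therefore 5.92-fold higher in Dox (-) than in Dox (+) (interval 4.83 to 7.32) and 73.3-fold higher in Dox (-) than in WT MEF (38.4 to 161). Dox (+) was still 12.4-fold above WT MEF (6.29 to 27.8), a ratio chosen with the values in view. None of the 3 intervals of the levels overlapped. All 6 listed exons were lower in Dox (+), by 4.88-fold to 6.00-fold, so the difference did not rest on 1 exon. Over the 4 non-overlapping exons the reads were 24 in WT MEF, 2427 in Dox (-) and 434 in Dox (+).

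Gfap (chr11:102887336-102900912, minus strand) was the member with the greatest difference between the knock-in libraries. It had 0.176 RPKM in WT MEF, from 1 read, 50.0 in Dox (-), from 99 reads, and 4.84 in Dox (+), from 13 reads. On the exon that was highest in Dox (-) the reads were 0, 99 and 8, which is 12.1-fold higher in Dox (-) than in Dox (+) (5.91 to 28.8) and at least 33.0-fold higher in Dox (-) than in WT MEF. This exon is short, and over the 10 non-overlapping exons the reads were 6, 1498 and 204, giving 7.18-fold between Dox (-) and Dox (+) (6.20 to 8.35). All 11 exons with at least 20 reads were lower in Dox (+). Their range was 1.56-fold to 13.3-fold, and the low end was exon 5 of Gfap-201, with 24 reads in Dox (-) and 15 in Dox (+).

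Ngfr (chr11:95568818-95587735, minus strand) had 0.123 RPKM in WT MEF, from 2 reads, 25.8 in Dox (-), from 187 reads, and 12.0 in Dox (+), from 85 reads. On the exon that was highest in both knock-in libraries WT MEF had 0 reads, so Dox (-) was at least 62.3-fold and Dox (+) at least 29.0-fold higher. Dox (-) was 2.15-fold above Dox (+) on this exon (1.66 to 2.81), under the 4-fold threshold. The exons did not differ by the same factor. The last exon, with 1875 and 571 reads, was 3.21-fold higher in Dox (-) (2.92 to 3.53), while the other 5 exons together, with 468 and 252 reads, were 1.82-fold higher (1.55 to 2.12), a split made after the data were seen. These intervals did not overlap. Over all 6 exons WT MEF had 8 reads against 2343 in Dox (-) and 823 in Dox (+).

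**Figure D2:**
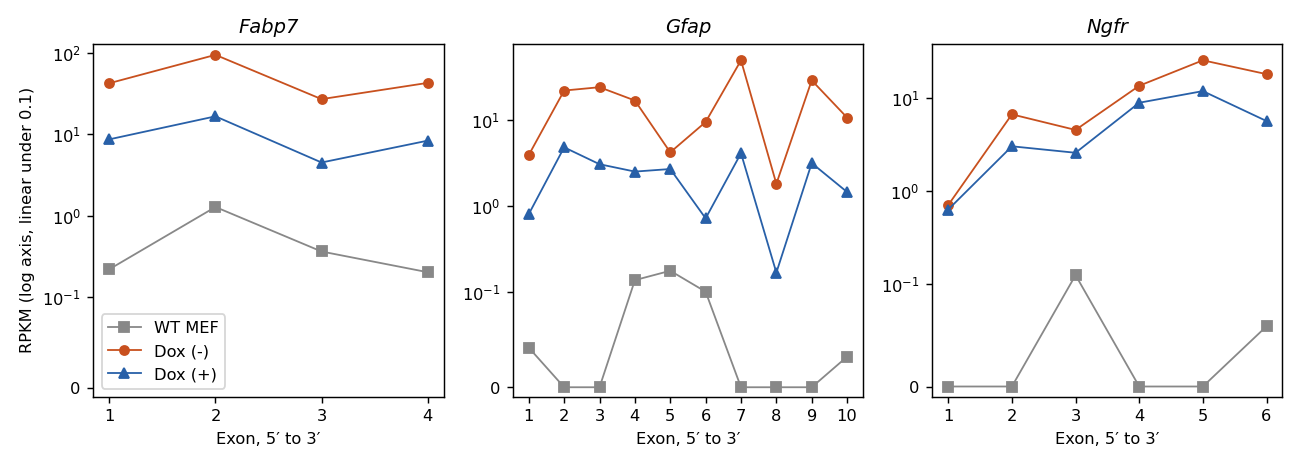
RPKM (log axis, linear under 0.1) of the non-overlapping exons of Fabp7, Gfap and Ngfr, ordered 5′ to 3′, in WT MEF (squares), Dox (-) (circles) and Dox (+) (triangles). Dox (-) lies above Dox (+) at every exon shown, and WT MEF lies lowest, with several Gfap and Ngfr exons at 0 reads.

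Among the myelin genes, Pmp22 (chr11:63128982-63159547, plus strand) was the most abundant member. Its highest exon had 297 RPKM in WT MEF, 426 in Dox (-) and 352 in Dox (+), from 1337, 1917 and 1550 reads. Dox (-) was 1.21-fold above Dox (+) (1.13 to 1.29) and 1.43-fold above WT MEF (1.34 to 1.54). The intervals exclude equal levels, but they leave out the spread between cultures, and neither difference reached the 4-fold threshold. Over the 7 non-overlapping exons Dox (-) was 1.31-fold above Dox (+) (1.28 to 1.34) and 1.20-fold above WT MEF (1.17 to 1.22).

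Pmp22 has alternative start exons that do not change its protein. The most upstream, from 63128982 to 63129150, had 25 reads in WT MEF, 5 in Dox (-) and 1 in Dox (+), or 3.29, 0.657 and 0.134 RPKM. The start exon from 63131512 to 63131654 had 561, 767 and 680 reads, and the start exon from 63132569 to 63132697 had 509, 692 and 602. Nearly all start exon reads thus came from the downstream starts in all 3 libraries, and only the upstream exon was highest in WT MEF.

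Mbp (chr18:82475146-82585637, plus strand) encodes myelin basic protein and also the Golli proteins, which begin at an upstream start and occur outside myelinating cells. Its highest exons had 1.08 RPKM in WT MEF, 3.79 in Dox (-) and 1.78 in Dox (+), from 10, 15 and 19 reads on 3 different exons. On the exon that was highest in Dox (-) the reads were 0, 15 and 3, which is 4.89-fold between Dox (-) and Dox (+) (1.38 to 26.3) and at least 5.00-fold over WT MEF. Most Mbp reads lay on 1 exon from 82554320 to 82558703, which GENCODE gives for a Golli transcript only. Its tail from 82554751 had 72 reads in WT MEF, 467 in Dox (-) and 79 in Dox (+), 5.78-fold higher in Dox (-) than in Dox (+) (4.55 to 7.43) and 6.49-fold higher than in WT MEF (5.05 to 8.43). The start of this exon had 10, 30 and 22 reads, and its ratio of 1.33 between Dox (-) and Dox (+) was not distinguishable from 1 (0.744 to 2.43). The classic Mbp transcripts share it only from 82554470 at the earliest. That part had 10, 18 and 19 reads, a ratio of 0.926 between Dox (-) and Dox (+) (0.458 to 1.86). The 3 listed internal exons downstream, 258 bp in all, had 3 reads in WT MEF and 0 in both knock-in libraries. The last exon, from 82584112 to 82585637, had 6, 20 and 7 reads, a ratio of 2.79 between Dox (-) and Dox (+) (1.13 to 7.82). This split was made after the data were seen. Over the 9 non-overlapping exons the reads were 91, 564 and 127, which is 4.34-fold higher in Dox (-) than in Dox (+) (3.58 to 5.31). Of the 14 exons with at least 20 reads 7 were lower in Dox (+), and the other 7 were overlapping versions of the start of the long exon, at most 1.25-fold higher in Dox (+).

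**Figure D3:**
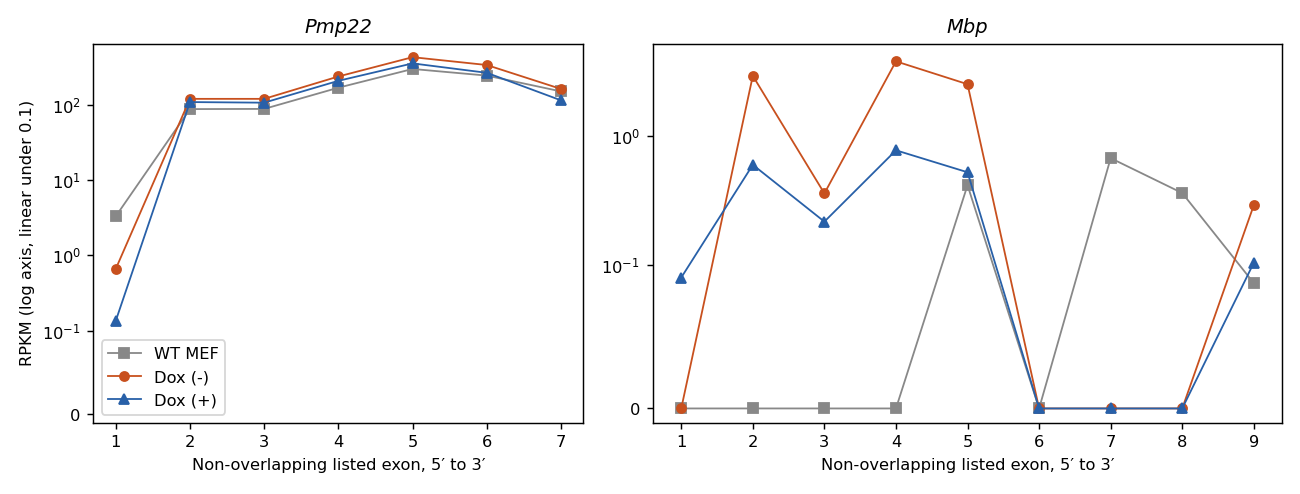
RPKM (log axis, linear under 0.1) of the non-overlapping listed exons of Pmp22 and Mbp, ordered 5′ to 3′, in WT MEF (squares), Dox (-) (circles) and Dox (+) (triangles). The most upstream Pmp22 exon lies at 3.29, 0.657 and 0.134 RPKM, far under the other Pmp22 exons, and Mbp exon 5, the long exon, lies at 2.52 RPKM in Dox (-) against 0.524 in Dox (+).

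Egr2 (chr10:67535475-67542188, plus strand) had 2.39 RPKM in WT MEF, 16.0 in Dox (-) and 12.3 in Dox (+). The knock-in values came from an exon of 50 bp with 36 and 27 reads, and WT MEF had 5 reads there. Dox (-) was 7.20-fold above WT MEF (2.82 to 23.5), whereas its ratio to Dox (+) was 1.30 (0.770 to 2.23) and included 1. Over 3 non-overlapping exons, with 273, 1149 and 794 reads, Dox (-) was 4.21-fold above WT MEF (3.69 to 4.82) and 1.41-fold above Dox (+) (1.29 to 1.55). All 12 listed exons were lower in Dox (+), many of them overlapping.

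Gap43 (chr16:42248442-42340651, minus strand) ran the other way against WT MEF. It had 61.3 RPKM in WT MEF, 19.1 in Dox (-) and 14.3 in Dox (+), from 1566, 488 and 357 reads on the same exon. WT MEF was 3.21-fold above Dox (-) (2.90 to 3.56), and all 3 listed exons were higher in WT MEF, by 3.12-fold to 3.97-fold. Dox (-) was 1.34-fold above Dox (+) (1.16 to 1.54). S100b (chr10:76253853-76261159, plus strand) stayed low, with 4.72 RPKM in WT MEF, 3.35 in Dox (-) and 4.51 in Dox (+), from 31, 22 and 29 reads. Its ratio of Dox (+) to Dox (-) was 1.35 (0.748 to 2.46) and that of WT MEF to Dox (-) was 1.41 (0.790 to 2.55), so no difference was detectable on this exon. The last exon, which holds most of the reads, had 75, 100 and 56, and there Dox (-) was 1.75-fold above Dox (+) (1.25 to 2.47), the opposite direction. Over its 3 exons the reads were 122, 131 and 100, and the ratio of Dox (-) to Dox (+) was 1.28 (0.980 to 1.68), so the direction of S100b was not settled.

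A gene counted as different when either library of a pair exceeded 10 RPKM and the levels were more than 4-fold apart. From Dox (-) to Dox (+), 719 of 13300 genes were lower (5.41%) and 218 were higher (1.64%). Of the 6 members above 10 RPKM, 2 were lower, Fabp7 and Gfap, and 0 were higher. Their median log2 difference after adding 1 RPKM, which understates changes of low genes, was -0.72, against 0.23 over all genes tested. Between Dox (-) and WT MEF, Dox (-) was the higher library for 1092 of 13227 genes (8.26%) and the lower for 160 (1.21%). Of the 6 members 4 were higher, Fabp7, Gfap, Ngfr and Egr2, and 0 were lower. Their median log2 difference was 3.45, against 0.01 over all genes. Gfap passed the level filter of the Dox (+) comparison through Dox (-) alone, as did Fabp7, Gfap, Ngfr and Egr2 that of the WT MEF comparison, and such a member could only be higher in Dox (-). Both comparisons share the Dox (-) library. The members and the lists below were chosen with earlier results of these data known. Their shares and medians beside those of all genes therefore only describe these libraries.

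Other genes were taken from Schwann cell lists of peripheral myelin, lineage regulators, receptors and signals, and adhesion and cytoskeleton. Lists of central glia, neurons and the S100 family, which are not Schwann lineage lists, were added, 85 genes in all without the members. Between Dox (+) and Dox (-), 41 were above 10 RPKM. Of these, 3 were lower in Dox (+) (7.32%) and 0 higher, near the shares over all genes (5.41% and 1.64%). The median log2 difference of the 41 was 0.02, against 0.23 over all genes. The 3 were Ntrk2, the BDNF receptor, Cdh19, a cadherin of Schwann cell precursors, and L1cam, an adhesion molecule. Cdh19 had 0.0224 RPKM in WT MEF, 14.4 in Dox (-) and 0.722 in Dox (+), a ratio of 20.02 between the highest exons of Dox (-) and Dox (+). On the single exon that was highest in Dox (-) the reads were 78 against 1, a ratio of 76.3 (13.3 to 3051). Ntrk2 had 0.889, 15.4 and 1.26 RPKM. On an exon of 36 bp it had 0, 25 and 2 reads, a ratio of 12.2 between Dox (-) and Dox (+) (3.05 to 106). L1cam had 4.44, 81.5 and 17.0 RPKM. Its Dox (-) and Dox (+) values came from 44 and 9 reads on an exon of 12 bp, where WT MEF had 2 reads. All 3 genes were highest in Dox (-). However, Ntrk2 and Cdh19 passed the level filter through Dox (-) alone, so they could only be lower in Dox (+).

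None of the 10 lineage regulators above 10 RPKM passed the threshold between Dox (+) and Dox (-). Over all genes 5.41% were lower and 1.64% higher, so 0 of 10 says little about this list. The median log2 difference of the 10 was 0.36, against 0.23 over all genes. Sox10, the regulator that defines neural crest glia and melanocytes, was under 10 RPKM in all 3 libraries, with 0.0514 in WT MEF, 6.69 in Dox (-) and 1.66 in Dox (+). On 1 shared exon it had 0, 81 and 15 reads, which is 5.28-fold higher in Dox (-) than in Dox (+) (3.02 to 9.87). Egr1, a relative of Egr2, had 53.6, 77.5 and 165 RPKM and was 2.13-fold higher in Dox (+) (2.08 to 2.19). Aqp4, an astrocyte water channel, had 0.0103, 9.88 and 0.219 RPKM, just under the level filter. S100a8, of the S100 family, was also just under it and went the other way, with 0, 0.680 and 9.70 RPKM.

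Between Dox (-) and WT MEF, 40 of the 85 genes were above 10 RPKM. Of these, 9 were higher in Dox (-) (22.5%, against 8.26% over all genes) and 1 was lower (2.5%, against 1.21%). The median log2 difference of the 40 was 0.61, against 0.01 over all genes. The 9 were Zeb2, Tead1, Ntrk2, Artn, Gfra1, Cdh19, L1cam, Gas7 and Aldh1l1, and the 1 was Stmn2, a neuronal microtubule regulator with 1271 RPKM in WT MEF, 67.8 in Dox (-) and 219 in Dox (+). They are named after their values were seen. Ntrk2, Artn, Cdh19, L1cam, Gas7 and Aldh1l1 passed the level filter through Dox (-) alone and could only be higher there. The Dox (-) levels of Tead1, Gfra1 and L1cam came from exons of 17, 15 and 12 bp. Gfra1 had 7 reads on its exon in WT MEF, or 10.4 RPKM, just over the level filter. Zeb2, a regulator of Schwann cell differentiation that other cells also express, had 16.7, 110 and 160 RPKM.

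**Figure D4:**
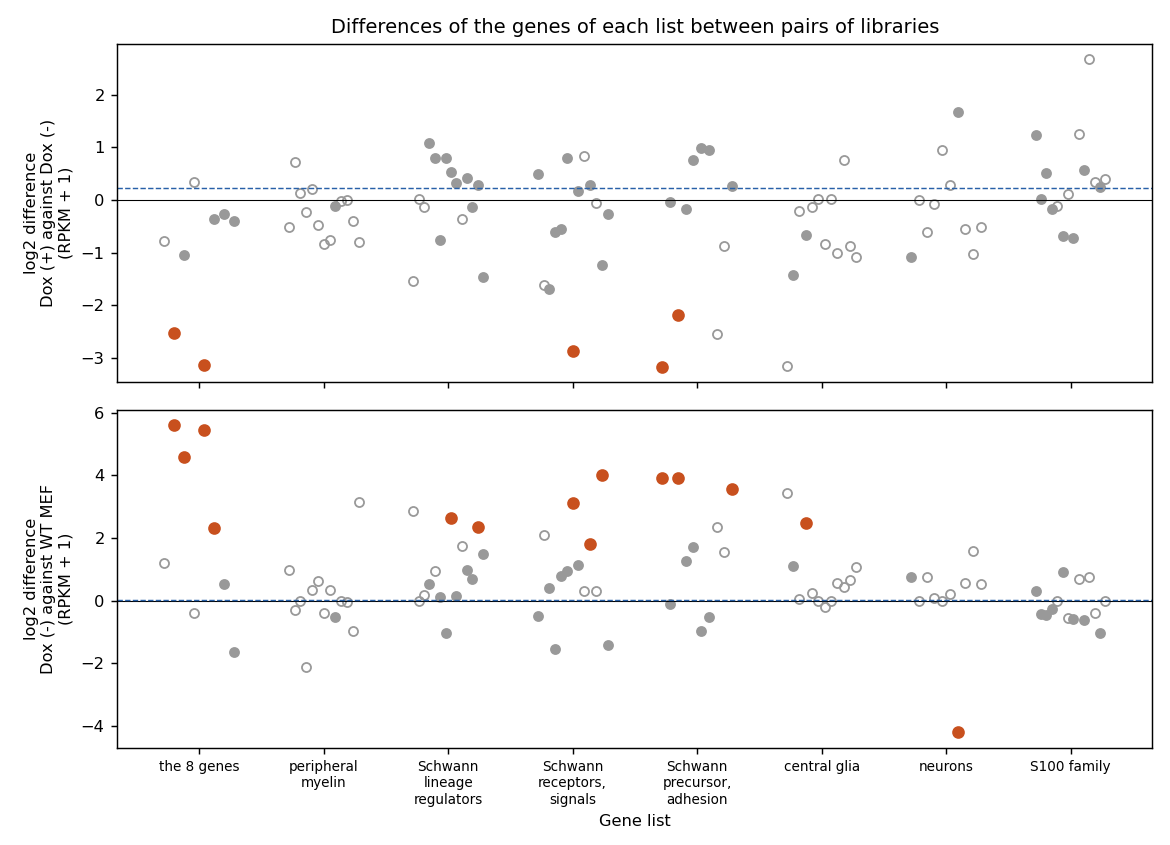
Difference of log2(RPKM + 1) for each gene of each list, Dox (+) against Dox (-) above and Dox (-) against WT MEF below; orange points are past the threshold, grey points are not, open points were under 10 RPKM in both libraries, and the dashed line is the median of all genes tested (0.23 and 0.01). Fabp7 and Gfap lie at -2.52 and -3.13 in the upper plot, and S100b appears both among the 8 genes and in its family.

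Sums of cell type markers also differed between the libraries, but not all in the same direction. The 4 Schwann cell markers (Cdh19, Sox10, Erbb3 and Foxd3) summed to 1.31 RPKM in WT MEF, 30.7 in Dox (-) and 4.55 in Dox (+), and Foxd3 was at 0 in WT MEF. Of the 4, only Cdh19 was above 10 RPKM, and only in Dox (-). The 8 macrophage markers summed to 56.3, 16330 and 600.5 RPKM, and all 8 were past the threshold, higher in Dox (-) than in WT MEF and lower in Dox (+) than in Dox (-). Macrophage markers were thus the list with the greatest difference between libraries. The 10 fibroblast markers summed to 20331, 54260 and 13750 RPKM, with 5 of 10 lower in Dox (+). The 10 melanocyte markers summed to 5.58, 35.1 and 326 RPKM, with Oca2 at 0 in all 3 libraries and Tyrp1 and Dct at 0 in WT MEF. The fibroblast sum was highest in Dox (-) and the melanocyte sum in Dox (+). Among the fibroblast markers, Thy1 was highest in Dox (+), with 726, 2014 and 3608 RPKM. Twist1 was highest in WT MEF, with 128, 79.7 and 89.9 RPKM. The 6 neuron markers summed to 30.3, 53.1 and 25.8 RPKM, nearly all of it Tubb3, with Elavl3 at 0 throughout, whereas the 10 genes of the neuron list, which include Stmn2, summed to 1301, 124 and 245.8 RPKM. The 7 keratinocyte markers summed to 174.5, 54.0 and 87.6 RPKM, with Krt5 at 0 in WT MEF. The sums of the Schwann cell, macrophage and fibroblast markers and of the 6 neuron markers were thus highest in Dox (-), as were Fabp7, Gfap and Ngfr. The part of any of these cell types in the members' levels was not tested.

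**Figure D5:**
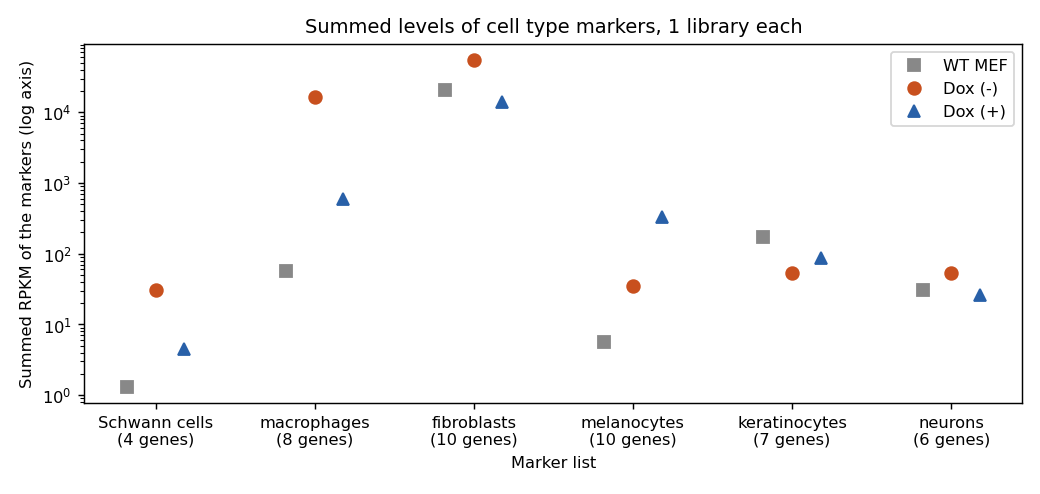
Summed RPKM (log axis) of markers of 6 cell types in WT MEF (squares), Dox (-) (circles) and Dox (+) (triangles), 1 library each. The Schwann cell sum is 30.7 RPKM in Dox (-) against 1.31 in WT MEF and 4.55 in Dox (+), and the macrophage sum is 16330 RPKM in Dox (-) against 56.3 in WT MEF and 600.5 in Dox (+).

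The genes nearest to each member were those with the smallest Euclidean distance of log2(RPKM + 1) over the 3 libraries, too few points to separate most genes. The nearest to Fabp7 were Cd53, a leukocyte tetraspanin with 2.37, 168 and 24.2 RPKM at a distance of 0.29, then Mdga1 and Slc43a2. The nearest to Gfap were Gatm, at 0.29, Lair1, a leukocyte receptor with 0.0501, 54.1 and 3.79 RPKM, and Hk3. Ngfr was nearest to Satb1, at 0.44, Cd40 and Gzme. Egr2 was nearest to Plekhm3, at 0.22, Serpini1 and Hist2h2aa2, Pmp22 to Ahcyl1, at 0.11, Glg1 and F3, and Gap43 to Dapp1, at 0.06, Prim1 and Fancl.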

How the data were processed

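RNA-seq was available for 1 library per group. Per the labels and the methods, the authors made poly(A) libraries, aligned reads to mm10 with TopHat2 2.0.10 (bcl2fastq 2.17.1.14 is also named in the submitters' processing notes), ran bedtools for the coverage of each Ensembl exon and deposited the result as RPKM. Strand use in counting is not given in the sources used here. Columns were assigned by name. WT MEF was the column named MEF, whose values differ from those under the same name in the study's supplementary data for the member listed there, so WT MEF results describe that column. In addition, 1 column of values whose name matched no label was not used, so PMel and its planned comparisons were not analysed here. Exon identifiers were matched to GENCODE M21 (6586 had no match). Whole reads were obtained by multiplying RPKM by exon length and by a depth, searched in steps of 1000000 reads. Levels, folds on 1 shared exon, thresholds (10 RPKM, 4-fold) and the pseudocount of 1 RPKM are defined with the results, and ratios used exact conditional binomial intervals at 95%. Members and lists were chosen with earlier results of these data known. Of the list genes planned, 2 are not reported here and were left out of every list and sum. Named list genes were those past the threshold between Dox (+) and Dox (-), at most 4 per list, others being marked in the text, with the 3 nearest genes of each member above 10 RPKM. The nearest genes were planned over 4 libraries and computed over 3. The motifs, the sequences shown, Sox10, Egr1, Aqp4 and S100a8 were chosen after values were seen. Alternatives changed the exon per gene, the scaling, the pseudocount and both thresholds. The steps were tested on simulated data. Python 3.11.15, pandas 2.3.3, NumPy 2.4.6, SciPy 1.17.1 and matplotlib 3.10.9 were used.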

Additional observations from a re-analysis of the deposited data

How the results depend on the processing

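With 1 library per group no replicate could be left out. No paired analysis was possible because each group holds 1 library. PMel comparisons were not run. Of 96 alternative log2 differences of single members 82 stayed within the counting interval and 14 moved, and 1 changed sign, Mbp between Dox (+) and Dox (-), which was 0.01 by the median exon against -0.78. Fabp7 and Gfap moved in that comparison, to -2.18 and -1.74 by the median exon, against -2.52 and -3.13. Of the alternative levels 40 moved and 8 did not. By the median exon Fabp7 had 48.3 RPKM in Dox (-) against 144, and Gfap had 10.8 against 50.0. Members lower in Dox (+) than Dox (-) numbered 1 in place of 2 at a fold threshold of 8, and members higher in Dox (-) than WT MEF numbered 2 in place of 4 at an expression threshold of 30 RPKM. At a fold threshold of 2 there was 1 member lower in Dox (-) than WT MEF, where there had been 0. The other counts of members stayed within 1.5 times, also with exons of at least 60 bp, which was added after the data were seen. Scaling the libraries to a common median ratio moved the median of all genes from 0.23 to 0.02 between Dox (+) and Dox (-), and the differences of Pmp22 and Gap43 to -0.49 and -0.60.

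Over all genes, expression thresholds of 1 and 30 RPKM gave 478 and 138 genes higher and 1447 and 425 lower in Dox (+) than Dox (-), and 2234 and 666 higher and 354 and 100 lower in Dox (-) than WT MEF. Fold thresholds of 2 and 8 gave 1438 and 92 higher and 1470 and 415 lower in Dox (+), and 2284 and 717 higher and 1049 and 77 lower in Dox (-) than WT MEF. The 85 list genes, neurons and the S100 family included, were counted in the same way. Between Dox (+) and Dox (-), an expression threshold of 1 RPKM gave 1 higher and 10 lower, and 30 RPKM gave 1 lower. A fold threshold of 2 gave 3 higher and 8 lower. Between Dox (-) and WT MEF these genes gave 19 higher and 2 lower at 1 RPKM, 15 higher and 5 lower at a fold threshold of 2, and 5 higher at 8.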
